A study of Rattus with 6 samples.

Results

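Collagen chains are the subject here: every protein-coding gene of the deposited table whose symbol has the form Col, a number, the letter a and a number. The rule found 35 chains among 16690 genes, and the table describes each of the 35 as a collagen type. The rule used names only and no measured value, but the chains were chosen as a subject with earlier results of these data known. RNA sequencing had been done on mesenchymal stem cells cultured from the femur and tibia marrow of Sprague Dawley rats, cells of stromal type whose surface markers were checked by flow cytometry (CD29+, CD90+, CD34-, CD45-). Rats with modelled chronic kidney disease (CKD) are represented by 3 libraries and healthy control rats by 3. The genotype is wild-type in both groups, cells were grown in serum medium and used at passages 3 to 5, the labels give no agent, and neither the way CKD was produced nor the age of the animals is given in the labels. Whether the RNA came from the cells, as the series' design text has it, or from exosomes, as the extract protocol has it, is not settled by the labels.

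Collagens are the main structural proteins of the extracellular matrix. Each is built from alpha chains that carry repeats of glycine followed by other residues and wind into a triple helix, and each chain is the product of its own gene. Fibril-forming collagens give bone, skin and tendon their tensile strength. Network-forming collagens build basement membranes and lattices, and fibril-associated collagens sit on the surface of fibrils. In the marrow, stromal cells and osteoblasts secrete type I collagen, the scaffold on which bone mineral is laid down, and the series is concerned with calcification of vessels in CKD.

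Each library held between 34404037 and 46892613 recovered fragments. Libraries did not divide by group alone. The tested chains of CKD replicates 2 and 3 differed by a median of 0.082 on log2(FPKM + 1), and those of control replicates 2 and 3 by 0.051, where FPKM is the fragment count scaled to gene length and library depth. CKD replicate 1 differed from CKD replicates 2 and 3 by medians of 0.82 and 0.84, and control replicate 1 from the other controls by 0.81 and 0.85. Over all 10638 tested genes the corresponding 4 medians lay between 0.19 and 0.21. Between CKD replicate 1 and control replicate 1 the median was 0.47 over the chains and 0.16 over all genes, so that each was closer to the other than to its own group. Both libraries numbered 1 thus stood apart from their groups, and results are given below with and without them. The disease model tag of CKD replicate 1 says control and that of control replicate 2 says CKD, against the title, library name and column code of each. Groups follow the code. CKD replicates 1 and 3 share the start of a library name, as do control replicates 1 and 2, and nothing says that each library is its own animal, so p-values cover the variation among these libraries, which may be technical. Markers of haematopoietic cells differed between libraries as well. All 14 tested of 18 listed had a positive log2 fold change (median 3.12), 9 with an unadjusted p under 0.05 and 0 called. Without both libraries numbered 1 all 14 were called higher, where 34.7% of all tested genes were. Their summed level was 293 to 3259 FPKM in CKD and 14.3 to 392 FPKM in control, and none of the 18 was at 0 in every library. Of other markers, 10 of 11 listed for marrow stroma were tested, with a summed level of 2140 to 2326 FPKM in CKD and 2108 to 2765 FPKM in control, and the 3 epithelial markers in the table summed to at most 1.01 FPKM. Endothelial markers summed to 6.37 to 10.9 FPKM in CKD and 7.23 to 13.6 FPKM in control. Most of this was Egfl7, the 1 tested of 9 listed, at 5.90 to 8.24 and 6.42 to 11.2 FPKM. The median over the 7 endothelial markers in the table was at most 0.0954 FPKM in any library. Smooth muscle markers summed to 3639 to 9293 and 4935 to 5229 FPKM, and none of these lists had a called gene with all 6 libraries. Adipocyte markers, by contrast, did not overlap in their sum, which was 17.6, 171 and 180 FPKM in CKD and 15.1, 6.14 and 6.41 FPKM in control. All 5 tested of 8 listed had a positive log2 fold change, 4 with an unadjusted p under 0.05 and 0 called, and none of the 7 in the table was at 0 in every library. In bulk libraries, fewer cells that make a transcript and less transcript per cell cannot be told apart.

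**Figure D1:**
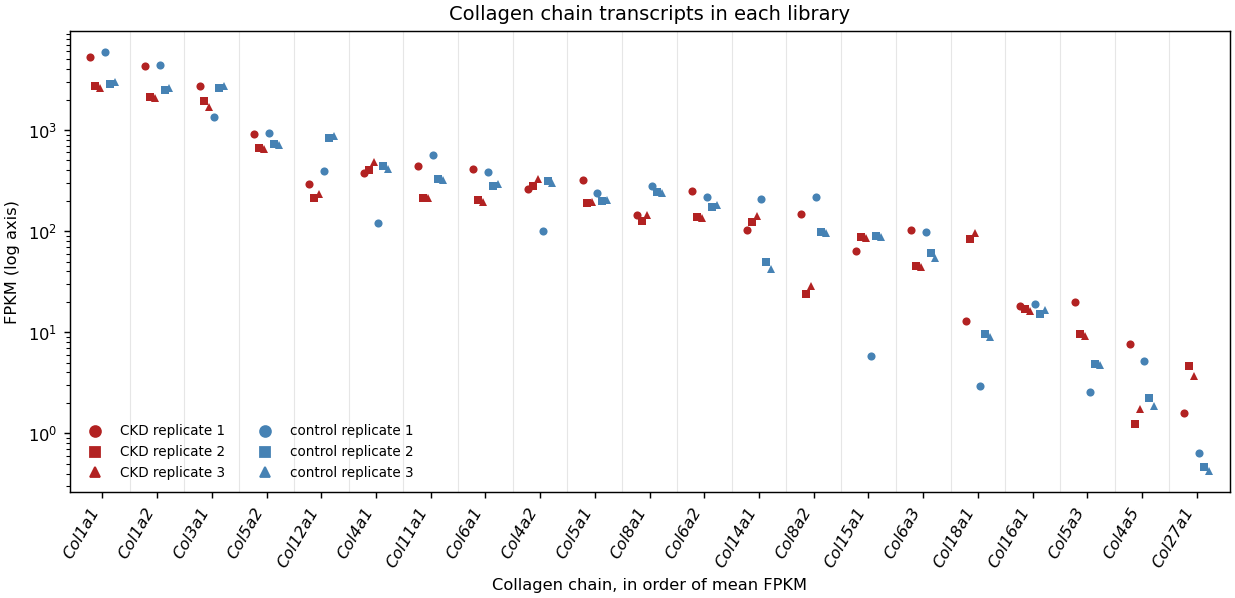
FPKM on a log axis of the 21 tested collagen chains in each of the 6 libraries, with CKD in red, control in blue and 1 symbol per replicate number. Levels span 0.421 FPKM (Col27a1 in control replicate 3) to 5881 FPKM (Col1a1 in control replicate 1), and for many chains the circles of both libraries numbered 1 lie away from the squares and triangles.

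Of the 35 chains, 21 reached 1 FPKM in at least 3 libraries and were tested. In CKD against control 1 chain was called lower at a limma adjusted p of 0.05, Col8a1, and 0 were called higher, counts that limma-voom on the recovered fragments also gave. Over all tested genes 0.733% were called lower and 1.33% higher. An unadjusted p under 0.05 was reached by 5 of the 21 chains, and by 22.1% of all tested genes. Groups did not overlap for 3 chains that were higher in CKD (18.3% of all tested genes) and for 2 that were lower (9.59%). Of the higher chains, Col27a1 reached 1 FPKM in CKD libraries only, so its separation is partly set by the filter. The log2 fold change was positive for 9 chains and negative for 12. Its median was -0.043, against 0.053 over all tested genes, and the median of its absolute value was 0.44, against 0.17. For 17 of the 21 chains the range within CKD or within control was wider than the distance between the group means, and this held for 80.7% of all tested genes.

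Without both libraries numbered 1, the remaining 2 CKD and 2 control libraries gave 4 chains called higher and 9 called lower. That fit called 34.7% of all tested genes higher and 20.3% lower. Its libraries are nearly alike within each group, and the labels do not say whether they are independent. The share of chains called, 61.9%, was near the 55.0% over all genes. The chains called higher were Col5a3, Col14a1, Col18a1 and Col27a1. The chains called lower were Col1a2, Col3a1, Col6a1, Col6a2, Col6a3, Col8a1, Col8a2, Col11a1 and Col12a1. Between CKD replicate 1 and control replicate 1, a comparison of 1 library with 1 and without a test, 11 of the 21 chains (52.4%) differed in the same direction as between the other libraries, where 55.0% of all tested genes did.

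**Figure D2:**
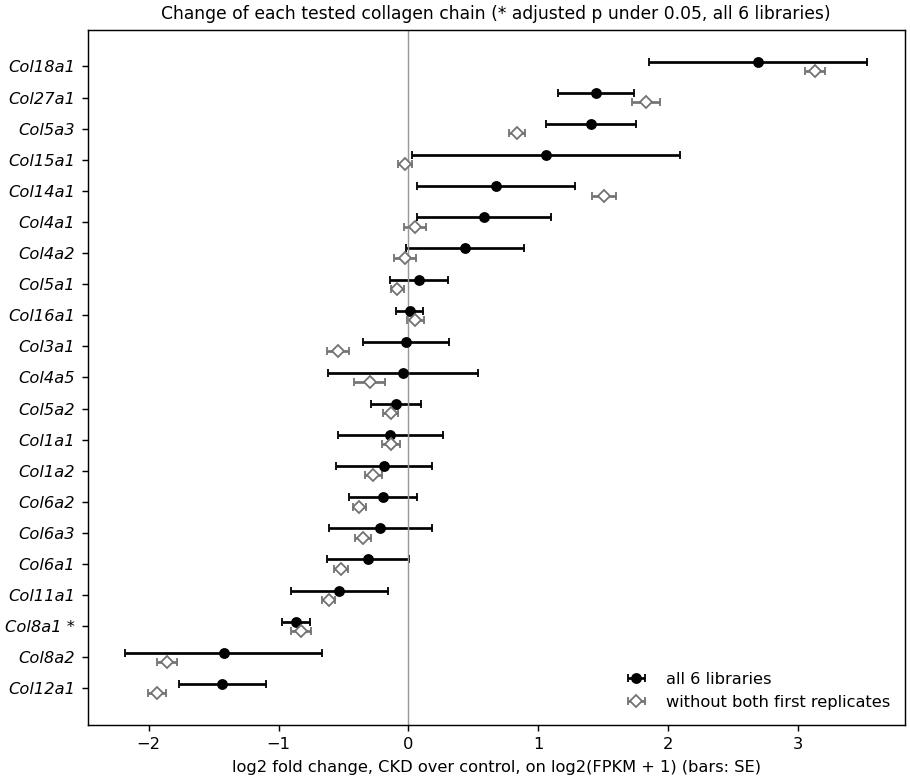
Log2 fold change of the 21 tested chains, CKD over control, on log2(FPKM + 1), with all 6 libraries (filled circles) and without both libraries numbered 1 (open diamonds); bars are standard errors. Col8a1 is the chain marked as called with all libraries, at -0.87, and Col15a1 moves from 1.06 to -0.026 when the libraries numbered 1 are left out.

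Col8a1 (NCBI Gene 304021) encodes a chain of type VIII collagen, a short-chain collagen that forms hexagonal lattices and is known from the subendothelial matrix of vessels and from the cornea. Its levels were 145, 125 and 145 FPKM in CKD replicates 1, 2 and 3 and 281, 244 and 236 FPKM in the controls. All CKD libraries lay below all controls, and neither library numbered 1 stood apart from its group. The group means were 138 ± 11.1 and 254 ± 24.2 FPKM (SD, n = 3 each), a log2 fold change of -0.87 ± 0.11 (SE, adjusted p by limma = 0.0355). Leaving out CKD replicate 2 or 3, or control replicate 2 or 3, ended its call (limma adjusted p = 0.161, 0.206, 0.15 and 0.172), with log2 fold changes between -0.92 and -0.80. Those fits called few genes in all, 1 to 3 higher and 5 to 7 lower. Col8a1 kept its call without CKD replicate 1, control replicate 1 or both (limma adjusted p = 0.0157, 0.0166 and 0.000134). It lost the call with the replicate number as a block, conflicting tags left out and shared name starts averaged (0.0600, 0.0709 and 0.0545). With groups by the disease model tag the log2 fold change was -0.37 (limma adjusted p = 0.748).

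Col8a2 (NCBI Gene 313592) encodes the partner chain of type VIII collagen. Its levels were 149, 24.1 and 28.3 FPKM in CKD replicates 1, 2 and 3, and 219, 98.7 and 96.0 FPKM in the controls. Both libraries numbered 1 were the highest of their group, and CKD replicate 1 lay above control replicates 2 and 3, so the groups overlapped. The chain did not pass (log2 fold change -1.42 ± 0.76 SE, adjusted p by limma = 0.328). Without both libraries numbered 1 the log2 fold change was -1.86 ± 0.08 (limma adjusted p = 4.21e-06), and CKD replicate 1 was at 0.68 times control replicate 1. The ratio of Col8a2 to Col8a1 was 1.03 in CKD replicate 1 and 0.780 in control replicate 1. It was 0.192 and 0.196 in the other CKD libraries and 0.404 and 0.407 in the other controls. Col10a1, the other short-chain gene and a marker of hypertrophic cartilage, was at most at 0.346 FPKM and was not tested.

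The 2 type I chains, Col1a1 and Col1a2, together held 50.1% to 59.2% of collagen FPKM in CKD and 45.3% to 66.7% in control. Col1a1 (NCBI Gene 29393) was the most abundant collagen chain in each of the 6 libraries. It stood at 5299, 2712 and 2620 FPKM in CKD and at 5881, 2858 and 3000 FPKM in control. Col1a2 (NCBI Gene 84352), its partner in the type I trimer, stood at 4328, 2124 and 2089 FPKM in CKD and 4390, 2498 and 2589 FPKM in control. For each of these chains, the library numbered 1 was the highest of both groups, at 1.73 to 2.05 times the mean of the other libraries of its group. Neither differed between groups beyond this spread (log2 fold change -0.14 ± 0.40 SE for Col1a1 and -0.19 ± 0.37 for Col1a2, limma adjusted p = 0.870 and 0.803). The ratio of Col1a1 to Col1a2 was nearly fixed, its highest value over the libraries being 1.17 times its lowest.

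Col3a1 (NCBI Gene 84032), the chain of type III collagen, which shares fibrils with type I in soft tissues, followed another course. It stood at 2754, 1945 and 1701 FPKM in CKD and at 1345, 2589 and 2709 FPKM in control. CKD replicate 1 was the highest and control replicate 1 the lowest library. The log2 fold change was -0.017 ± 0.33 SE (limma adjusted p = 0.984), and it was -0.54 ± 0.08 without both libraries numbered 1 (limma adjusted p = 0.00163). Col3a1 ranked below both type I chains in 4 libraries and between them in control replicates 2 and 3. The ratio of Col3a1 to Col1a1 was 0.229 in control replicate 1 against 0.906 and 0.903 in the other controls, and 0.520, 0.717 and 0.649 in CKD.

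Among the minor fibril-forming chains, which join type I fibrils and help to set their diameter, Col5a2 and Col5a1 varied little. Col5a2 (NCBI Gene 85250) stood at 920, 661 and 642 FPKM in CKD and at 927, 724 and 709 FPKM in control (log2 fold change -0.095 ± 0.19 SE, adjusted p by limma = 0.802). Col5a1 (NCBI Gene 85490) stood at 317, 188 and 192 FPKM in CKD and at 236, 199 and 204 FPKM in control (0.084 ± 0.22 SE, adjusted p = 0.858). Col11a1 (NCBI Gene 25654), known from cartilage and from fibroblast matrix, stood at 441, 211 and 213 FPKM in CKD and 570, 330 and 321 FPKM in control. Again the libraries numbered 1 were highest, and within each number the CKD library lay below the control. The chain did not pass with all libraries (-0.53 ± 0.37 SE, adjusted p = 0.440).

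Col5a3 (NCBI Gene 60379) and Col27a1 (NCBI Gene 298101) were the fibril-forming chains with higher, non-overlapping CKD values. Col5a3 encodes a less common chain of type V collagen. It stood at 19.7, 9.59 and 9.25 FPKM in CKD and at 2.55, 4.88 and 4.78 FPKM in control. CKD replicate 1 was the highest library and control replicate 1 the lowest, so the difference was 7.73-fold between the libraries numbered 1 and 1.95-fold between the means of the others. The log2 fold change was 1.41 ± 0.34 (SE, adjusted p by limma = 0.103). Relative to Col5a2, Col5a3 was at 0.0144 to 0.0215 in CKD and at 0.00275 to 0.00674 in control. Col27a1, a fibril-forming collagen of the growth plate, stood at 1.6, 4.62 and 3.67 FPKM in CKD and at 0.641, 0.460 and 0.421 FPKM in control. All CKD libraries were above all controls, here with CKD replicate 1 the lowest of its group. The chain reached 1 FPKM in the 3 CKD libraries only. It thus entered the test through the group where it is high, and its separation and p-values are partly set by the filter. The log2 fold change was 1.44 ± 0.29 (SE, adjusted p by limma = 0.0742). It was 1.77 without CKD replicate 1 (adjusted p = 0.00593) and 1.75 (adjusted p = 0.0413) with CKD replicate 1 and control replicate 2, whose tags conflict, left out, and passed in both fits.

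Type IV collagen makes the sheet of basement membranes. Its chains Col4a1 (NCBI Gene 290905) and Col4a2 (NCBI Gene 306628) are neighbours in the genome and are assembled together. Col4a1 stood at 373, 406 and 477 FPKM in CKD and at 120, 440 and 410 FPKM in control, and Col4a2 at 261, 279 and 326 FPKM in CKD and at 101, 315 and 299 FPKM in control. Control replicate 1 was the lowest library for both, and the other 5 libraries lay between 373 and 477 FPKM for Col4a1. The log2 fold changes were 0.58 ± 0.52 and 0.44 ± 0.45 (SE, adjusted p by limma = 0.543 and 0.607), and without control replicate 1 they were -0.027 and -0.095. The ratio of Col4a1 to Col4a2 kept between 1.19 and 1.47. Col4a5, a chain known from the kidney's glomerular basement membrane, was far lower, at 7.57, 1.24 and 1.75 FPKM in CKD and at 5.19, 2.25 and 1.87 FPKM in control. It was highest in the library numbered 1 of both groups (log2 fold change -0.043 ± 0.58 SE, adjusted p by limma = 0.976).

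Type VI collagen forms beaded filaments around cells. Its 3 chains in the table had similar profiles. Col6a1 (NCBI Gene 294337) stood at 408, 202 and 195 FPKM in CKD and at 381, 281 and 289 FPKM in control. Col6a2 (NCBI Gene 361821), its neighbour in the genome, stood at 247, 139 and 133 FPKM in CKD and at 220, 175 and 180 FPKM in control. Col6a3 (NCBI Gene 367313) stood at 102, 45.4 and 44.1 FPKM in CKD and at 98.6, 60.1 and 54.4 FPKM in control. The libraries numbered 1 were the highest of each group for all 3, and the groups overlapped. The log2 fold changes were -0.31 ± 0.32, -0.20 ± 0.26 and -0.22 ± 0.40 (SE), and none passed (limma adjusted p = 0.595, 0.698 and 0.786). Without both libraries numbered 1 they were -0.52, -0.38 and -0.35, and all 3 passed (limma adjusted p = 0.000232, 0.00095 and 0.00335).

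The fibril-associated collagens, abbreviated FACIT, had 3 tested chains with 3 different profiles. Col12a1 (NCBI Gene 25683), which binds type I fibrils in tendon, periosteum and other loaded tissue, stood at 295, 212 and 235 FPKM in CKD and at 396, 840 and 873 FPKM in control. All CKD libraries were below all controls, while control replicate 1 was much closer to CKD than the other controls were. The means were 247 ± 42.7 and 703 ± 266 FPKM (SD, n = 3 each), and the chain did not pass (log2 fold change -1.43 ± 0.34 SE, adjusted p by limma = 0.0982). Without control replicate 1 the log2 fold change was -1.80 (adjusted p = 0.00986). Col14a1 (NCBI Gene 314981), a related chain that also sits on type I fibrils, had the reverse arrangement among controls. It stood at 102, 123 and 141 FPKM in CKD and at 205, 49.2 and 42.4 FPKM in control, with control replicate 1 the highest of all libraries. Its log2 fold change was 0.67 ± 0.61 (SE, adjusted p = 0.550), and 1.39 without control replicate 1, where it passed. Col16a1 was the most even chain, between 15.3 and 19.2 FPKM in every library (0.0093 ± 0.10 SE, adjusted p = 0.969).

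**Figure D3:**
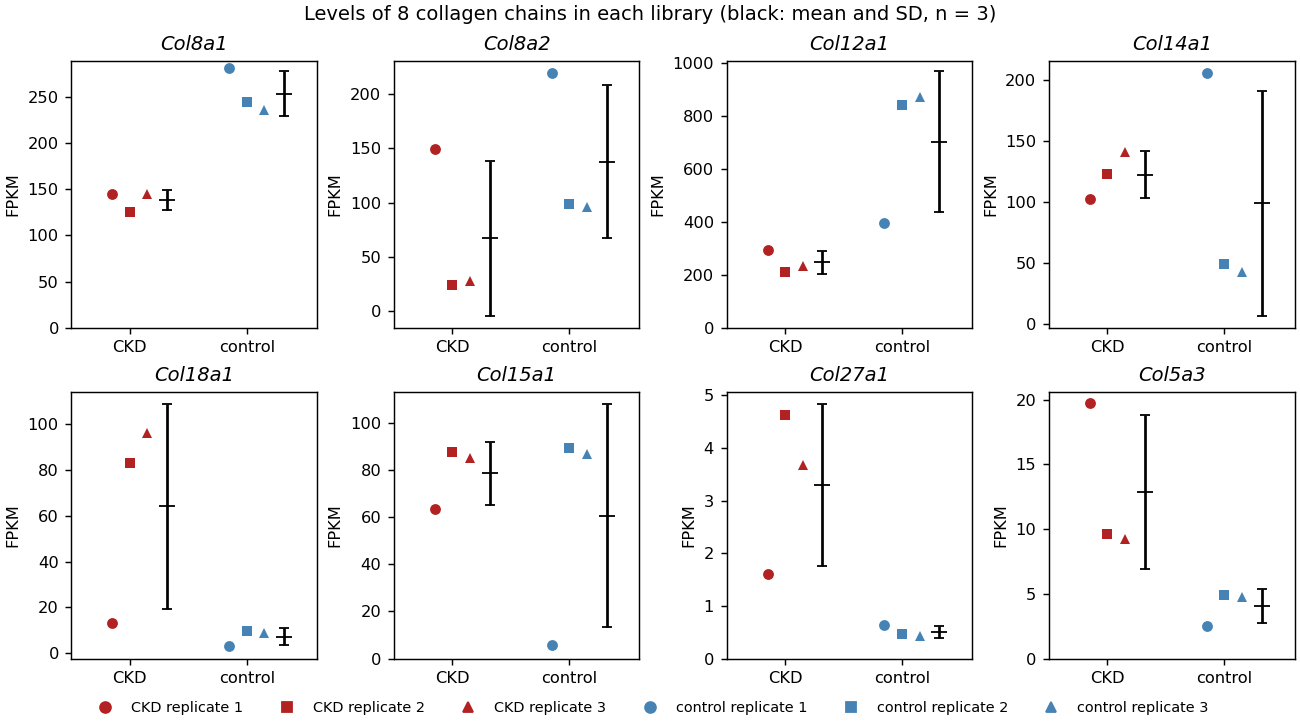
FPKM of 8 chains in each library on linear axes, with the mean and SD of each group (n = 3) in black. Col8a1 separates the groups with little spread within them; for Col8a2, Col14a1, Col18a1 and Col15a1 1 library numbered 1 or both lie far from the others of the group.

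Col18a1 (NCBI Gene 85251) had the largest positive log2 fold change of the tested chains with all 6 libraries. Together with Col15a1 it forms the multiplexins, basement membrane proteoglycans whose triple helix is interrupted, and its C-terminal fragment is endostatin, an inhibitor of angiogenesis. It stood at 13.0, 83.2 and 96.2 FPKM in CKD and at 2.97, 9.63 and 9.01 FPKM in control. All CKD libraries were above all controls, but CKD replicate 1 lay far nearer to the controls than to its own group. The means were 64.1 ± 44.7 and 7.2 ± 3.68 FPKM (SD, n = 3 each; log2 fold change 2.70 ± 0.84 SE, adjusted p by limma = 0.15). The chain passed without CKD replicate 1 (3.59, adjusted p = 0.0162), without both libraries numbered 1 (3.13, adjusted p = 6.06e-07) and with libraries that share a name start averaged (3.00, adjusted p = 0.0418). The haematopoietic markers were high in the same CKD libraries. The median over the 18 markers was 1.6, 33.8 and 20.03 FPKM in CKD replicates 1, 2 and 3 and 2.90, 0.197 and 0.0935 FPKM in the controls. Ptprc, which encodes the leukocyte antigen CD45, stood at 0.783, 15.5 and 11.4 FPKM and at 1.33, 0.0140 and 0.0204 FPKM. In the controls the order differed: control replicate 1 had the highest marker level and the lowest Col18a1. Adipocyte markers were also high in CKD replicates 2 and 3. Fabp4, a fatty acid carrier of adipocytes and macrophages, stood at 4.18, 95.1 and 93.01 FPKM in CKD and at 4.23, 1.55 and 1.6 FPKM in control, and Lpl, lipoprotein lipase, at 5.83, 58.5 and 70.3 and at 5.99, 0.964 and 0.836. The part of either cell type in the Col18a1 values was not tested.

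Col15a1 (NCBI Gene 298069) stood at 63.3, 87.6 and 84.8 FPKM in CKD and at 5.86, 89.1 and 86.5 FPKM in control. Control replicate 1 was lower than each other library by a wide margin, and the other 5 lay close together. The log2 fold change of 1.06 ± 1.03 (SE, adjusted p by limma = 0.580) rested on that library and was -0.17 without it (adjusted p = 0.498).

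Summed over the 35 chains, collagen transcripts took 8.93%, 5.33% and 5.26% of all recovered fragments in the CKD libraries numbered 1, 2 and 3, and 8.60%, 6.87% and 7.03% in the controls. The libraries numbered 1 held the most, and the group means of 6.5% ± 2.1 and 7.5% ± 0.954 (SD, n = 3 each) overlapped (exact permutation test, two-sided p = 0.6, where 3 against 3 libraries cannot go below 0.1). As summed FPKM, which removes gene length, the chains reached 9398 to 16267 in CKD and 11826 to 15409 in control. Fibril-forming chains held 79.5% to 86.6% of it in CKD and 77.8% to 86.7% in control. Col1a1, Col1a2 and Col3a1 alone held 68.2% to 76.1% and 67.2% to 75.4%.

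Among the classes, the share of the short-chain network (Col8a1, Col8a2 and Col10a1) did not overlap between groups. It was 1.81%, 1.56% and 1.84% of collagen FPKM in CKD and 3.25%, 2.90% and 2.73% in control (exact permutation p = 0.1, the smallest possible). The FACIT share was 2.56%, 3.67% and 4.18% in CKD and 4.03%, 7.65% and 7.69% in control (exact permutation p = 0.200), with an overlap made by control replicate 1. Their summed level itself was 353 to 417 FPKM in CKD and 621 to 933 FPKM in control and did not overlap (exact permutation p = 0.1). The multiplexin share was 0.469%, 1.78% and 1.93% in CKD and 0.0573%, 0.835% and 0.787% in control (exact permutation p = 0.300). The basement membrane share, at 3.95% to 8.57% in CKD and 1.46% to 6.41% in control, and the type VI share, at 3.96% to 4.65% and 4.31% to 4.53%, overlapped. These p-values are not adjusted over the quantities compared.

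**Figure D4:**
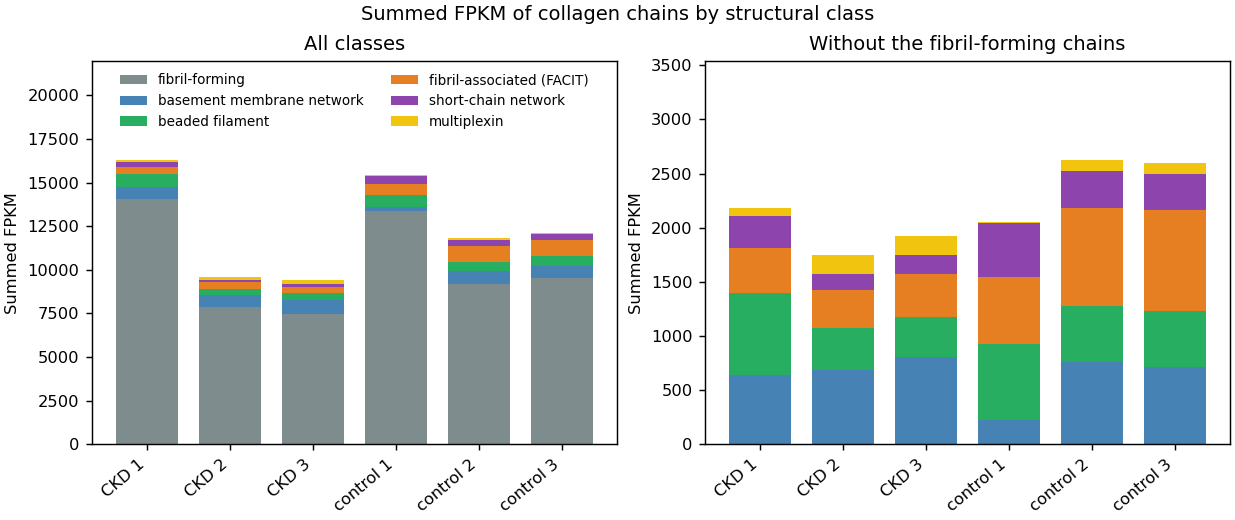
Summed FPKM of the collagen chains by structural class in each library, with all classes on the left and without the fibril-forming chains on the right; bars start at 0. The left bars of CKD 1 and control 1 reach 16267 and 15409 and all others stay at or below 12133; on the right, the FACIT part is 353 to 417 in CKD and 621 to 933 in control.

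Ratios between chains of a type, or between types that share fibrils, were compared for 8 pairs. With 3 against 3 libraries no exact permutation p can be below 0.1, so these tests cannot call a difference, and the ratios are given as values. The ratio of Col4a1 to Col4a2 was 1.43 to 1.47 in CKD and 1.19 to 1.40 in control, and the ratio of Col5a3 to Col5a2 also did not overlap (both exact permutation p = 0.1, adjusted p = 0.4). Over all libraries the highest ratio was at most 1.48 times the lowest for Col1a1 to Col1a2, Col4a1 to Col4a2, Col5a1 to Col5a2, Col6a1 to Col6a2 and Col6a3 to Col6a2. It was 3.96 times for Col3a1 to Col1a1, 5.37 times for Col8a2 to Col8a1 and 7.79 times for Col5a3 to Col5a2. In the reference gene order Col3a1 and Col5a2 are neighbours, like Col4a1 and Col4a2, Col6a1 and Col6a2, and Col4a3 and Col4a4.

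The 14 chains below the filter contributed at most 0.0487% of collagen FPKM in any library, with 12 to 777 recovered fragments each over all 6 libraries. In a fit without the filter none of them was called, the lowest limma adjusted p was 0.137, and 2 had an unadjusted p under 0.05. Col9a2, a chain of the cartilage FACIT type IX, had 178, 58 and 90 fragments in CKD and 26, 12 and 4 in control, or 1.56, 0.570 and 0.707 FPKM against 0.188, 0.0973 and 0.0354. Its partner Col9a3 had between 1 and 6 fragments in each library, a level near that of 3 fragments. Col23a1, a transmembrane collagen, had 13, 118 and 222 fragments in CKD and 7, 10 and 8 in control. Groups did not overlap in FPKM for Col9a2 and Col23a1, higher in CKD, or for Col20a1, lower in CKD. The share of all genes below the filter with such a pattern was not counted, so it shows nothing particular to these chains.

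Col7a1, which forms the anchoring fibrils under epithelia, had 38, 179 and 310 fragments in CKD and 16, 45 and 39 in control. In FPKM CKD replicate 1 lay below control replicates 2 and 3. Col4a3, another chain of the kidney basement membrane, had 58, 166 and 222 fragments in CKD and 56, 86 and 84 in control. As for Col18a1, these chains and Col23a1 were highest in CKD replicates 2 and 3, where the haematopoietic and adipocyte markers were highest, and the part of those cells was not tested. Col20a1 was lower in each CKD library, at 0.160, 0.157 and 0.146 FPKM against 0.254, 0.221 and 0.218. Col19a1 had 3, 2 and 0 fragments in CKD and 3, 58 and 39 in control. Col25a1, a transmembrane collagen of neurons and muscle, had 46 and 65 fragments in the libraries numbered 1 and 4 to 10 in the others. Counting error covers only part of the uncertainty at these levels.

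**Figure D5:**
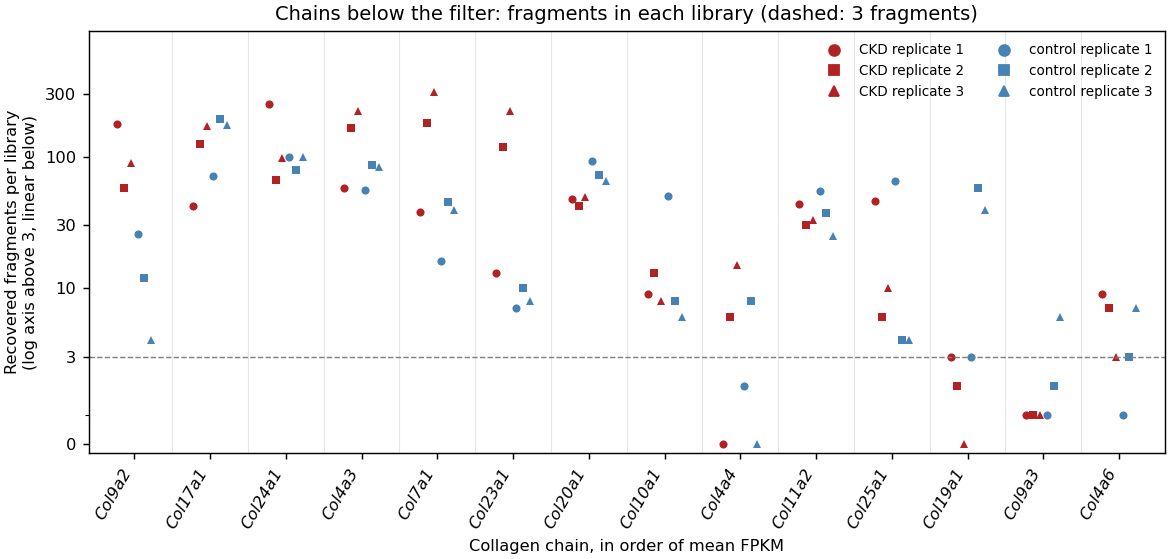
Recovered fragments per library of the 14 chains below the filter, on an axis that is logarithmic above 3 fragments and linear below; libraries hold 34404037 to 46892613 fragments. Col9a2 and Col23a1 are higher in every CKD library, with 4 to 26 and 7 to 10 fragments in the controls. The share of all genes below the filter with this pattern was not counted.

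In the authors' deposited table, made by a count test, 6 of the 35 chains had a q-value under 0.05 and were higher in CKD, where 6.72% of all 16690 genes did, and 3 were lower, where 4.6% of all genes did. The higher chains in the authors' deposited table were Col27a1 (log2 fold change 2.60, q = 3.4e-08), Col18a1 (3.05, q = 0.000549), Col9a2 (3.08, q = 0.000891), Col23a1 (3.80, q = 0.00126), Col5a3 (1.6, q = 0.00404) and Col7a1 (2.36, q = 0.0293). The lower chains in the authors' deposited table were Col8a1 (-0.95, q = 8.33e-09), Col12a1 (-1.58, q = 0.000229) and Col19a1 (-4.28, q = 0.0301). Both analyses use the same libraries, so the values stand side by side and are not independent of each other.

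Genes that act on collagen after transcription were counted from lists. Among proteins that process secreted procollagen, 5 of the 10 listed were tested, and 1 was called higher and 1 lower, where 1.33% and 0.733% of all tested genes were. Bmp1, the protease that removes the C-propeptide of fibrillar procollagens, rose in CKD, at 28.7, 24.6 and 24.9 FPKM against 16.4, 14.7 and 16.3 (log2 fold change 0.69 ± 0.09 SE, adjusted p by limma = 0.0399). Pcolce, which enhances that cleavage, fell, at 472, 467 and 483 FPKM in CKD against 714, 693 and 731 in control (-0.59 ± 0.08 SE, adjusted p by limma = 0.0399). The groups did not overlap for either gene. Several settings ended these calls, and leaving out replicate 2 or 3 of either group ended both, with adjusted p-values of 0.153 to 0.210 for Bmp1 and 0.153 to 0.223 for Pcolce. Those fits called 1 to 3 genes higher and 5 to 7 lower in all. Without both libraries numbered 1, 3 processing genes were called higher and 1 lower, where 34.7% and 20.3% of all tested genes were. Among proteins that bind fibrils and regulate their growth, 13 of the 16 listed were tested, 2 were called lower and 0 higher, where 0.733% and 1.33% of all tested genes were. They were the small proteoglycan genes Fmod, at 5.31, 4.59 and 3.29 FPKM in CKD against 19.7, 22.7 and 22.9 in control (-2.09 ± 0.16 SE, adjusted p by limma = 0.0113), and Omd, at 3.22, 1.69 and 1.68 against 6.63, 6.27 and 5.76 (-1.21 ± 0.20 SE, adjusted p by limma = 0.0471). Over the 13 tested, 6 log2 fold changes were positive and 7 negative (median -0.066). Other small proteoglycan genes of the list went both ways. Dcn, at 228, 312 and 227 FPKM in CKD against 87.0, 19.9 and 9.15, had 3.26 ± 0.77 SE (adjusted p by limma = 0.0985). Lum had 1.64 ± 0.59, Bgn 0.25 ± 0.11 and Prelp -1.44 ± 0.55 (adjusted p by limma = 0.191, 0.245 and 0.209). Without both libraries numbered 1, 5 of the 13 were called higher and 7 lower. Fmod lost its call without CKD replicate 2 or control replicate 2 or 3 (adjusted p = 0.0837, 0.111 and 0.111), and Omd without CKD replicate 2 or 3 or control replicate 2 or 3 (0.202, 0.229, 0.191 and 0.210).

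No gene was called among the 17 tested of hydroxylation and folding (median log2 fold change -0.039, 4 at an unadjusted p under 0.05), the 11 of export from the endoplasmic reticulum (0.016, 0 at that level), the 6 of crosslinking (-0.14, 2), the 6 collagen receptors (-0.26, 2) and the 13 of collagenases and collagen uptake (0.22, 2). The same held for the 15 genes of the control of type I collagen transcription (0.054, 4). Without both libraries numbered 1, genes called higher and lower were 7 and 4 for hydroxylation and folding, 1 and 0 for export and 0 and 3 for crosslinking. These counts were 2 and 3 for receptors, 8 and 3 for collagenases and uptake, and 6 and 5 for transcription. That fit called 34.7% of all tested genes higher and 20.3% lower. With all 6 libraries the median over all tested genes was 0.053, and 22.1% of them had an unadjusted p under 0.05. Of hydroxylation and folding, the genes at an unadjusted p under 0.05 included Plod2, the lysyl hydroxylase of telopeptides, at 271, 279 and 266 FPKM in CKD and 206, 150 and 136 in control (0.75 ± 0.16 SE, adjusted p by limma = 0.0858). Plod3, another lysyl hydroxylase, was at 64.4, 63.8 and 68.4 FPKM against 53.3, 51.4 and 53.2 (0.31 ± 0.07 SE, adjusted p by limma = 0.0843). P3h3, of the prolyl 3-hydroxylase family, lay the other way, at 51.4, 51.3 and 51.1 FPKM against 60.4, 65.9 and 66.7 (-0.32 ± 0.07 SE, adjusted p by limma = 0.0858). Groups did not overlap for these 3 genes, where 18.3% of all tested genes were higher in CKD without overlap and 9.59% lower. The groups overlapped for P4ha1, the other gene at that level. It was at 176, 230 and 224 FPKM in CKD and 181, 112 and 105 in control (0.69 ± 0.24 SE, adjusted p by limma = 0.176). Of the fibril-cleaving collagenases, Mmp13 stood at 0.488, 6.0 and 5.49 FPKM in CKD and at 1.02, 0.11 and 0.11 in control, with high values in the same CKD libraries as the haematopoietic markers (1.59 ± 0.65 SE, adjusted p = 0.229).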

How the data were processed

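Per the labels' protocols, libraries came from poly-A RNA with a stranded kit. Per the submitters' processing notes the authors used the rat build mRatBN7.2, the aligner HISAT2 2.1.0, the counter HTSeq 0.11.2, DESeq2 1.22.2, DESeq 1.34.1, FastQC 0.11.9 and SAMtools 1.9. Their order, settings and use of strand are not given in the sources used here, so neighbouring or overlapping genes may share fragments. The authors deposited 1 table with FPKM per gene and library, mean normalized counts per group, fold changes, log2 fold changes, p-values and q-values, per the file headers, with decimal commas. Its lowest mean normalized count was 1.03.

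Fragment counts were recovered from FPKM and group means, and all 100140 values were whole within 0.01. They served for depth, for low chains and for limma-voom. The groups were compared with limma 3.58.1 under R 4.3.3, two-sided, with its trend option, on values of log2(FPKM + 1). Genes entered if 3 or more libraries reached 1 FPKM, and p-values were adjusted over all of them (Benjamini-Hochberg, threshold 0.05). Fold changes on that scale understate those of low genes. Sums, shares and ratios were compared by exact permutation (scipy 1.17.1). The fit was tested on simulated data with 200 changed genes.

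All 35 chains were found by gene identifier in the RefSeq genes of a different assembly, GRCr8, from which only names and gene order were taken. It holds 9 further chains, such as Col2a1, that were not analysed here. Chain classes and gene lists, and the chains themselves, were chosen with earlier results of these data known. Values per library are given for called chains, the 12 most abundant chains and chains with an absolute log2 fold change of at least 1, which makes 17. Other chains and genes were named after their values were seen. Replicate numbers follow the column codes; the title of CKD replicate 3 has the number 4. Alternatives changed the pseudocount, filter, scaling, libraries, groups and model. Planned edgeR and DESeq2 fits were not run.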

Additional observations from a re-analysis of the deposited data

How the results depend on the processing

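Over 15 alternatives, all of them limma fits, the number of chains called higher or lower depended mainly on which libraries entered. The kind of test mattered as well. The authors' deposited count test, on the same 6 libraries and all 35 chains, had 6 chains higher and 3 lower. Leaving out 1 library at a time gave 0 to 2 chains higher and 0 to 2 lower, against 0 and 1 with all. Without both libraries with conflicting tags the counts were 1 and 0, with libraries that share a name start averaged 1 and 0, with groups by the disease model tag 0 and 0, and without both libraries numbered 1 they were 4 and 9. With the replicate number as a block (replicate block) 0 chains were called in either direction, and 60 genes in all were called higher and 28 lower, against 142 and 78 without it. Over the whole table no filter gave 81 and 52, limma-voom 56 and 42, and leaving out 1 library 1 to 1139 higher and 5 to 546 lower. Deviations of same-numbered libraries from their group means correlated at 0.036, -0.031 and 0.11 across genes. Even so, CKD replicate 1 and control replicate 1 were closer to each other than to their own groups. The block took the standard error of Col1a1 from 0.40 to 0.14 and that of Col3a1 from 0.33 to 0.40. Whether the numbers pair the libraries is thus not settled. A pseudocount of 0.1, no filter, size-factor scaling and limma-voom kept the counts at 0 and 1. The planned edgeR and DESeq2 fits were not run, since the deposited table holds no counts per library, and limma-voom on the recovered fragments took their place.

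Of 255 log2 fold changes of the 17 chains under alternatives, 213 had the same direction and side of the threshold, 16 passed newly, 8 no longer passed, all of Col8a1, and 18 changed sign. Chains that changed sign were not called with all 6 libraries, though Col1a2 and Col3a1 were called lower without both libraries numbered 1. With 1 library left out, the range was -0.47 to 0.19 for Col1a1, -0.53 to 0.075 for Col1a2, -0.34 to 0.16 for Col3a1, -0.26 to 0.028 for Col5a2, -0.16 to 0.21 for Col5a1, -0.027 to 0.91 for Col4a1, -0.095 to 0.72 for Col4a2 and -0.17 to 1.69 for Col15a1. Without both libraries numbered 1, Col3a1 was at -0.54, and the sign changed for Col5a1 (-0.085), Col4a2 (-0.026) and Col15a1 (-0.026). It changed for Col5a1 with groups by tag (-0.36) and without both libraries with conflicting tags (-0.21). With groups by tag the CKD minus control difference in share of collagen FPKM was -4.24 points for the fibril-forming, 0.407 for the FACIT and -0.497 for the short-chain class, against 1.58, -2.99 and -1.23 with groups by code. Omd lost its call with a pseudocount of 0.1 (limma adjusted p = 0.0576), no filter (0.0678), size factors (0.0501), the replicate block (0.072) and limma-voom (0.0565). Pcolce lost it with no filter (0.0647), the block (0.0871), limma-voom (0.0565), conflicting tags left out (0.082) and averaging (0.0724). Bmp1 lost it with size factors (0.0549), the block (0.06), conflicting tags left out (0.0629) and averaging (0.0541). Fmod kept it in each of these settings. With groups by tag all 4 lost it, with log2 fold changes of 0.073 for Bmp1, -0.22 for Pcolce, -0.82 for Fmod and -0.69 for Omd. The cause of these shifts was not tested. Groups of 3 libraries limit what can be called, and low chains rest on few fragments.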

Other observations

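Cartilage and bone genes were uneven between the libraries in ways that cross the groups. Sox9, the transcription factor of cartilage, stood at 8.44 and 6.96 FPKM in CKD replicate 1 and control replicate 1 and at 2.03 to 2.46 FPKM in the other libraries. Of the 21 tested collagen chains, 12 were highest in the library numbered 1 of both groups. The share of all tested genes with this pattern was not counted, so the number shows nothing particular to collagen chains. Acan, the main cartilage proteoglycan, stood at 48.6 FPKM in CKD replicate 1, at 0.726 and 1.27 in the other CKD libraries, and at 5.19, 8.88 and 9.54 in the controls. Alpl, a phosphatase of mineralizing cells, was at 40.7, 7.54 and 9.22 FPKM in CKD and at 19.4, 3.99 and 3.56 FPKM in control, again highest in the library numbered 1 of each group. None of these genes passed (limma adjusted p = 0.907, 0.830 and 0.524). Scx, a tendon transcription factor that acts on type I collagen genes, was at 20.5, 6.77 and 4.89 FPKM in CKD and at 53.4, 18.0 and 21.6 FPKM in control (log2 fold change -1.52 ± 0.61 SE, adjusted p by limma = 0.225).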
